A study of Mus musculus with 10 samples.

Results

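The surface markers that divide early B cell development in the bone marrow into stages were followed in pro-B cells of 4 Pax5 genotypes. The list was given as 10 genes, and all 10 of them were found by symbol among the 25579 genes of the deposited tables: Ptprc, Spn, Cd24a, Enpep, Cd93, Bst1, Ly6d, Ly6a, Cd2 and Ms4a1. All 10 reached at least 1 TPM in at least 1 library and were tested. RNA-seq had been performed on cells sorted ex vivo from bone marrow of C57BL/6 mice, with 2 libraries for each of the genotypes Pax5(+/+), Pax5(+/-), Pax5(R31Q/-) and Pax5(fl/fl) Vav-Cre. The Pax5(R31Q/-) cells carry 1 allele coding for the Pax5-R31Q protein, with an exchange in the DNA-binding paired domain, and 1 null allele. The R31Q allele was made by CRISPR in zygotes. In the Pax5(fl/fl) Vav-Cre cells, here written Pax5-/-, both alleles are deleted by a Cre that is active from early haematopoiesis onward. The labels call these cells progenitors and the others pro-B cells. Pax5 binding was taken from ChIP-seq peak lists of pro-B cells expanded in vitro for 6 d, with 1 library of Rag2(-/-) cells, taken as wild type for Pax5, and 1 library labelled Pax5(R31Q/-) by genotype. The labels of the second disagree, since its description places R31Q on Rag2, and the 2 lists may thus differ in more than the Pax5 allele. With 1 library a genotype, the binding has no replicate check. Ages of the mice, and whether libraries of 1 genotype came from separate animals, are not given in the sources used here, so the p-values measure only the spread between these libraries.

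B cell precursors are staged by proteins on their surface. In the scheme of Hardy, B220, a long isoform of CD45, marks the lineage, CD43 is present on the earliest fractions and lost later, and CD24 (heat-stable antigen) and BP-1 appear in turn as pro-B cells mature. AA4.1, BP-3, Ly6D, Sca-1, CD2 and CD20 refine these steps from the lymphoid progenitor to the small pre-B cell and beyond. Pax5 is the transcription factor that commits cells to the B lineage, and it binds DNA through its paired domain.

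The reads behind the TPM values (reads divided by gene length and scaled to the same total in each library) could be recovered, and between 21625407 and 34488454 reads per library fell on genes, fewest in Pax5-/- library 1. The sort gate stated for pro-B cells included B220+ Kit+ CD2- IgM- IgD-, so the levels of Ptprc and Cd2 were in part set by sorting. The gate of the Pax5-/- progenitors is not given in the sources used here. Pax5 was at 418 and 444 TPM in Pax5+/+, 272 and 287 TPM in Pax5+/-, 306 and 293 TPM in Pax5 R31Q/- and 1240 and 1410 TPM in Pax5-/- libraries. A value per gene does not show which exons were read, so this does not check the deletion. Tests used limma over all expressed genes, with log2(TPM + 1) as the scale, on which differences of low genes come out smaller than their ratio of TPM. To be called, a gene needed an adjusted p below 0.05, a change of more than 3-fold and a mean above 5 TPM in either genotype. A two-sided exact permutation test of 2 against 2 libraries cannot go below p = 0.333. Libraries of bulk RNA cannot tell fewer cells of a type from less RNA per cell.

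**Figure D1:**
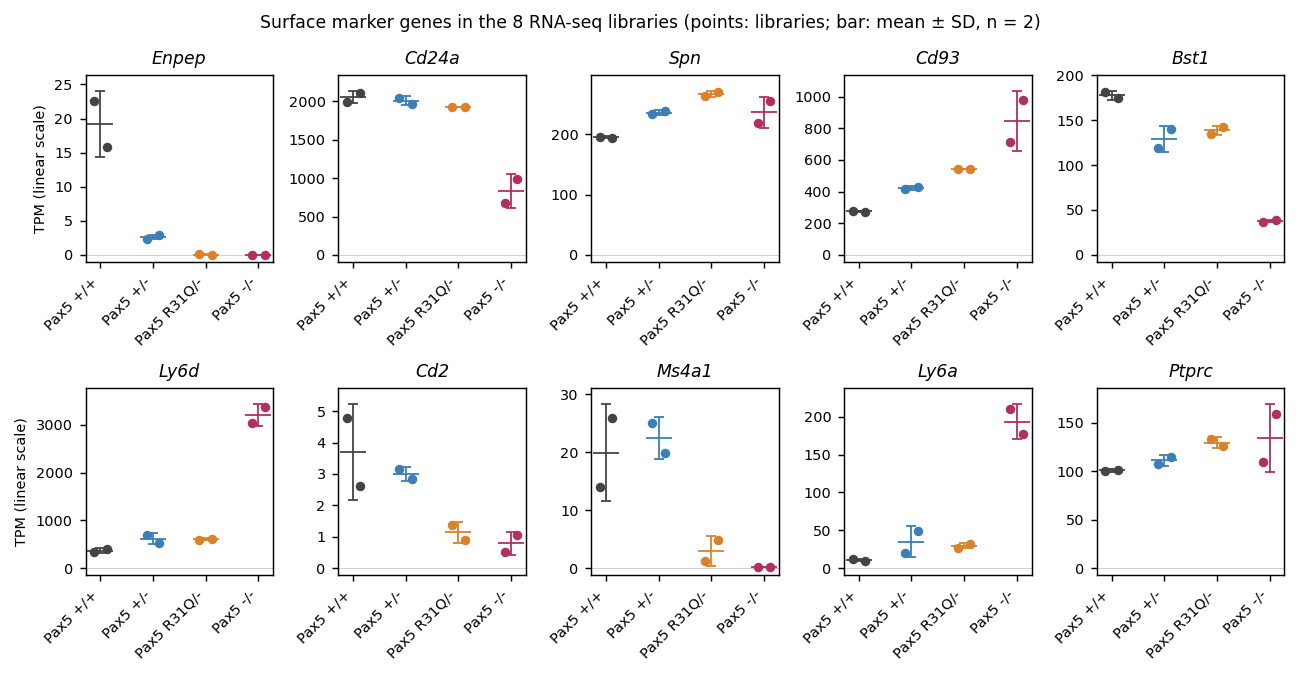
TPM (linear y axis) of each of the 10 surface marker genes by Pax5 genotype. Points are libraries and bars the mean ± SD (n = 2). Enpep and Ms4a1 are near 0 in the Pax5-/- libraries, while Ly6d reaches 3039 and 3362 TPM and Ly6a 210 and 177 TPM there.

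All 10 genes had at least 1 Pax5 peak of the wild-type list in the gene body or within 10 kb, against 86.4% of 12893 genes tested. A peak of the R31Q list was found in or near 9 of the 10 genes, against 85.6% of genes tested. Of the 19 wild-type peaks of the members, 14 were met by a R31Q peak over at least 1 bp, against 68.8% of the wild-type peaks in or near a gene tested. These shares of the markers were close to those of other expressed genes. A wild-type peak within 1 kb of a transcription start site (TSS) was present at 5 genes, Cd24a, Spn, Cd93, Bst1 and Ms4a1, against 66.8% of genes tested. At 1 of these 5, Ms4a1, no R31Q peak met it, against 3.93% of the genes with such a peak. The 5 unmet peaks lay at Enpep, Ms4a1, Cd93 (2 peaks) and Ptprc. The 14 R31Q peaks at the members included 1 that no wild-type peak met, upstream of Cd24a, against 18.4% of the whole R31Q list.

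**Figure D2:**
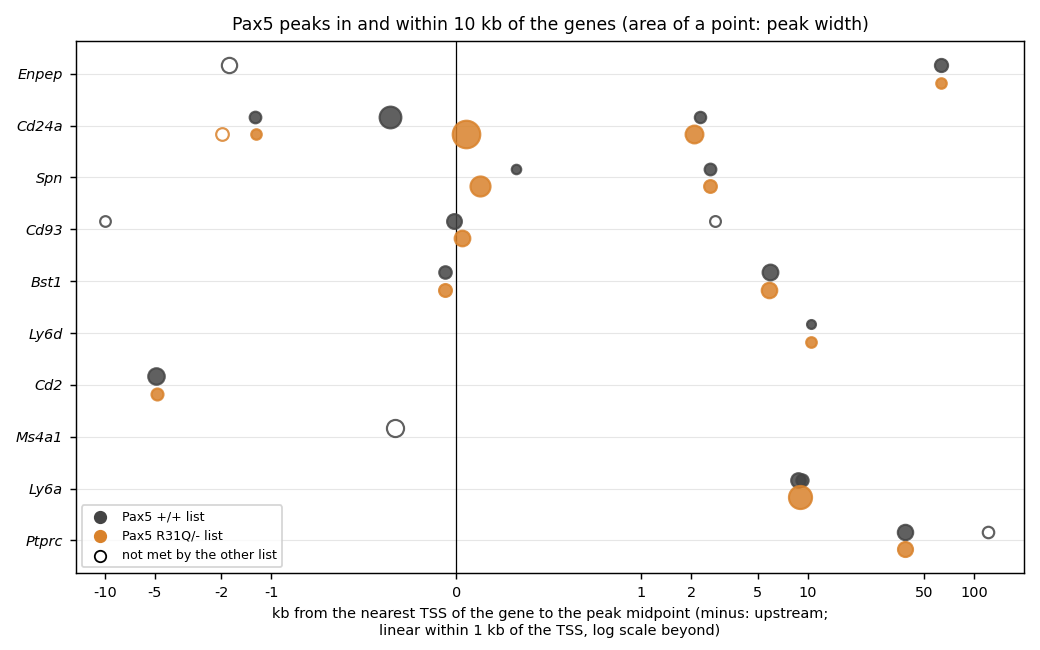
Position of the Pax5 peaks in and within 10 kb of the 10 genes, as kb from the nearest TSS of the gene to the peak midpoint (linear within 1 kb, log scale beyond; minus is upstream). The area of a point is the peak width, colour is the list, and open points are peaks that the other list does not meet. Nearest to a TSS, the open points are the wild-type peaks of Ms4a1 (0.33 kb) and Enpep (1.8 kb) and the R31Q peak of Cd24a (1.99 kb), all upstream.

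Enpep codes for BP-1, a glutamyl aminopeptidase that splits an amino acid from the end of peptides and appears on late pro-B and large pre-B cells. In GRCm38/mm10 it spans bases 129269177 to 129332749 of chromosome 3 (minus strand). It was at 22.6 and 15.8 TPM in Pax5+/+ and at 2.36 and 2.88 TPM in Pax5+/- pro-B cells. Only 4 reads and 1 read (0.0682 and 0.0175 TPM) were found in the Pax5 R31Q/- libraries. In the Pax5-/- libraries, 1 read (0.0237 TPM) and 0 reads were counted. The genotypes with wild-type Pax5 were thus separated from each other and from the other two, which overlapped. Enpep fell in Pax5 R31Q/- pro-B cells with a log2 fold change of -4.26 (SE 0.21, adjusted p = 0.000237 from limma), in Pax5-/- cells with -4.30 (SE 0.21, adjusted p = 1.34e-05 from limma) and in Pax5+/- pro-B cells with -2.47 (SE 0.21, adjusted p = 0.0174 from limma). In pooled reads, the ratio of Pax5+/+ to Pax5 R31Q/- was 450.0, with a 95% interval from 193 to 1390 for counting error only, and the ratio to Pax5+/- was 7.42 (6.57 to 8.40). The call in Pax5+/- pro-B cells was lost when either library of the Pax5+/+, Pax5+/- or Pax5 R31Q/- genotype was left out, with adjusted p from 0.0801 (without Pax5+/+ library 2) to 0.221 (without Pax5+/- library 1) from limma, and log2 fold changes from -2.71 to -2.22.

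A wild-type peak of 573 bp lay upstream of Enpep, with its midpoint 1.8 kb from the TSS, and no R31Q peak met it. Of the 2736 wild-type peaks within 10% of its width, 11.8% were unmet. The other peak of Enpep, 422 bp wide in its 3′ UTR from 129269292 to 129269713, was met by a R31Q peak of 271 bp. The central 300 bases of the unmet peak are shown, since it is the peak nearest to the start of the marker that fell furthest in Pax5 R31Q/- pro-B cells. Sequences are the plus strand of RefSeq GRCm38.p6, 5′ to 3′, and capitals mark the best match to a 15-base Pax5 consensus on either strand. This consensus was set for the search as GCANCCA, then A or T, then GCGTGAC.

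Enpep upstream peak, chr3:129334401-129334700: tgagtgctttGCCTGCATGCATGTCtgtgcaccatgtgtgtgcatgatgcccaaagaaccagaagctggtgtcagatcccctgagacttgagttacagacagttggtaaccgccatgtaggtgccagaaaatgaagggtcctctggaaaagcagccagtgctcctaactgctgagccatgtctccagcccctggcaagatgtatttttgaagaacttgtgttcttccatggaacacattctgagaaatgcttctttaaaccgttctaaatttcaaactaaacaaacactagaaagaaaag

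The best match here had 4 mismatches, which 25.3% of all wild-type peaks reached in the 300 bases at their midpoint. Repeats masked in the reference covered 47.1% of this peak, against a median of 6.3% in wild-type peaks that a R31Q peak met, while the median peak that none met was masked throughout.

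Ms4a1 codes for CD20, a membrane protein of the B lineage that is most abundant from the pre-B cell on. It spans 11249679 to 11266149 of chromosome 19 (minus strand) and overlaps 4930526L06Rik on the other strand, outside the exons. Ms4a1 was at 14.04 and 25.8 TPM in Pax5+/+ and 24.9 and 19.9 TPM in Pax5+/- pro-B cells. It was at 1.18 and 4.83 TPM in Pax5 R31Q/- and 0.234 and 0.19 TPM in Pax5-/- cells. The ranges of Pax5+/+ and Pax5+/- overlapped, and the other genotypes lay below them and apart from each other. Ms4a1 fell in Pax5 R31Q/- pro-B cells (log2 fold change -2.49, SE 0.46, adjusted p = 0.0261 from limma) and in Pax5-/- cells (-4.05, SE 0.46, adjusted p = 0.00048 from limma). It was not past the threshold in Pax5+/- pro-B cells, at 0.21 with a 95% interval from -0.85 to 1.28. Leaving out Pax5+/+ library 2, either Pax5+/- library, Pax5 R31Q/- library 1 or Pax5-/- library 1 ended the call in Pax5 R31Q/- pro-B cells, with adjusted p from 0.0518 (without Pax5-/- library 1) to 0.191 (without Pax5+/+ library 2) from limma and log2 fold changes from -2.49 to -1.78. The call was also lost without a filter on low TPM (adjusted p = 0.179 from limma) and with only both genotypes in the fit (adjusted p = 0.0551 from limma).

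The wild-type peak of Ms4a1, from 11266122 to 11266840, was 719 bp wide and covered the TSS, part of the 5′ UTR and the sequence upstream. No R31Q peak met it, and the R31Q list held 0 peaks within 50 kb of the gene, where the wild-type list held 3. Only 6.9% of the 1869 wild-type peaks of like width were unmet. Its central 300 bases, all upstream of the TSS, are shown as those of the 1 TSS peak of the markers that was not met.

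Ms4a1 promoter peak, chr19:11266332-11266631: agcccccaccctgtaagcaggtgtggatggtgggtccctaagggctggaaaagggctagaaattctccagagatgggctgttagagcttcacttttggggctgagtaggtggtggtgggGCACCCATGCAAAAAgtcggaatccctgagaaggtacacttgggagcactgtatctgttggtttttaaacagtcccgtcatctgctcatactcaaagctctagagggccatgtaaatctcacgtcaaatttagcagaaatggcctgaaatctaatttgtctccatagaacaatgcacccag

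The best match had 4 mismatches (25.3% of wild-type peaks). The left part of the consensus, GCANCCA, was present 2 times in this window on either strand without a mismatch, and at least 1 exact copy was present in 14.5% of all wild-type peaks. The right part, GCGTGAC, which 3.78% of wild-type peaks held, was not found in either window shown so far. Of the 10 genes, Enpep and Ms4a1 were the only ones with a log2 fold change past the call in Pax5 R31Q/- pro-B cells, 2 genes of 10, where 0.57% of all genes tested were called lower. At an adjusted p under 0.05, 2 of the 10 were lower against 2.56% of genes tested.

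Cd93 codes for AA4.1, a lectin-like receptor of early B cells that is lost on maturation. It spans 148436651 to 148443535 of chromosome 2 (minus strand). Cd93 was at 278 and 272 TPM in Pax5+/+, 414 and 432 TPM in Pax5+/-, 542 and 543 TPM in Pax5 R31Q/- and 714 and 981 TPM in Pax5-/- cells. The 4 genotypes did not overlap in any pair, and the level was higher in the order Pax5+/+, Pax5+/-, Pax5 R31Q/-, Pax5-/-. Cd93 rose in Pax5 R31Q/- pro-B cells (log2 fold change 0.98, SE 0.15, adjusted p = 0.0142 from limma), as the 1 member of 10 that was higher at an adjusted p under 0.05, against 1.57% of genes tested. This adjusted p was 0.051 to 0.132 without any single library of the Pax5+/+ and Pax5 R31Q/- genotypes, highest without Pax5 R31Q/- library 2, and 0.0872 without a filter on low TPM. In Pax5-/- cells Cd93 rose with 1.60 (SE 0.15, adjusted p = 0.000215 from limma), close to the 3-fold threshold, and without Pax5-/- library 2 the log2 fold change was 1.37 and no longer past 3-fold. The difference in Pax5+/- pro-B cells, 0.62 with a 95% interval from 0.27 to 0.97, did not pass (adjusted p = 0.355 from limma).

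At Cd93, the TSS lay in a wild-type peak of 536 bp from 148443275 to 148443810 and in a R31Q peak of 600 bp. Unmet were a 288 bp peak in the 3′ UTR and a 281 bp peak with its midpoint 9.98 kb upstream, and 85.7% and 85.1% of wild-type peaks of like width were unmet. The part of the common peak that lies outside the gene is shown as the start of a marker bound in both lists.

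Cd93 promoter peak, chr2:148443536-148443810: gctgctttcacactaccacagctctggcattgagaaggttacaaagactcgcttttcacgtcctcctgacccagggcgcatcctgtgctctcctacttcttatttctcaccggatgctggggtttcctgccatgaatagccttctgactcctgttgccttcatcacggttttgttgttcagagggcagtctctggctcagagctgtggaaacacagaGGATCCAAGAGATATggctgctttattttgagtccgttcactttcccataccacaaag

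The best match in this stretch had 5 mismatches, as many as the best in the central 300 bases of the peak, and 92.5% of all wild-type peaks had a match as good.

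Bst1 codes for BP-3 (CD157), an ectoenzyme of the ADP-ribosyl cyclase family on B cell precursors and stroma. The gene covers 43818880 to 43843468 of chromosome 5 (plus strand). It was at 181 and 174 TPM in Pax5+/+, 119 and 140 TPM in Pax5+/- and 135 and 142 TPM in Pax5 R31Q/- cells, and at 37.0 and 38.7 TPM in Pax5-/- cells. Pax5+/- and Pax5 R31Q/- overlapped, below Pax5+/+ and above Pax5-/-. Bst1 fell in Pax5-/- cells (log2 fold change -2.20, SE 0.11, adjusted p = 1.63e-05 from limma). Its differences of -0.36 in Pax5 R31Q/- (adjusted p = 0.146) and -0.46 in Pax5+/- pro-B cells (adjusted p = 0.367) did not pass the threshold of limma. Both of its wild-type peaks were met by R31Q peaks: a 384 bp peak over the TSS from 43818647 to 43819030, and a 607 bp peak in an intron from 43824498 to 43825104, 5.91 kb downstream. The middle of the intronic peak, which had the closest match to the consensus among all peaks of the 10 genes, reads as follows.

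Bst1 intronic peak, chr5:43824652-43824951: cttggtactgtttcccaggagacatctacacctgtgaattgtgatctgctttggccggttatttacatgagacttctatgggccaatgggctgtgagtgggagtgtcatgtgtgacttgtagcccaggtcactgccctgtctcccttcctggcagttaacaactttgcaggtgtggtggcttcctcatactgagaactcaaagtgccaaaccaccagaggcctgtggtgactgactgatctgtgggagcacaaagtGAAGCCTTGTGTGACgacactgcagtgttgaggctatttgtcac

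This match had 3 mismatches, and 7.8% of all wild-type peaks had a match as good.

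Ly6d and Ly6a belong to a family of small proteins held in the membrane by a lipid anchor. Ly6D marks the lymphoid progenitors that are biased to the B lineage, and Ly6a codes for Sca-1, known from haematopoietic stem cells and progenitors and induced by interferon. Ly6d (chromosome 15, 74762056 to 74763567, minus strand) was at 333 and 403 TPM in Pax5+/+, 702 and 534 TPM in Pax5+/-, 593 and 619 TPM in Pax5 R31Q/- and 3039 and 3362 TPM in Pax5-/- cells. Ly6a (chromosome 15, 74994877 to 74998031, minus strand) was at 11.6 and 9.97 TPM, 20.3 and 49.3 TPM, 27.2 and 31.96 TPM, and 210 and 177 TPM in the same order. For both genes, Pax5+/+ was lowest, Pax5+/- and Pax5 R31Q/- overlapped and Pax5-/- was highest and apart. Ly6d rose in Pax5-/- cells by a log2 fold change of 3.12 (SE 0.16, adjusted p = 1.68e-05 from limma) and had rank 31 among all genes by mean TPM there, against rank 445 in Pax5+/+ pro-B cells. Ly6a rose by 4.04 (SE 0.35, adjusted p = 0.000139 from limma), a ratio of 17.9 between the mean TPM values. In Pax5 R31Q/- pro-B cells, the differences of 0.72 for Ly6d (adjusted p = 0.0536) and 1.37 for Ly6a (adjusted p = 0.0806) did not pass the threshold of limma. Ly6d passed with voom on the recovered reads (adjusted p = 0.0307), with a filter at 5 TPM (0.0473) and with only both genotypes in the fit (0.0441). Ly6a passed in limma without Pax5+/- library 1 (adjusted p = 0.0147) or library 2 (0.015) and with only both genotypes in the fit (0.0103).

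Marker lists of other cell types and states differed in both directions in the Pax5-/- libraries. The summed level of 15 interferon response genes was 504 to 635 TPM in Pax5+/+, 763 to 781 TPM in Pax5+/-, 616 to 651 TPM in Pax5 R31Q/- and 945 to 1123 TPM in Pax5-/- cells. In Pax5-/- cells, 8 of these 15 rose at an adjusted p under 0.05 from limma, against 16.2% of all genes tested, and 0 fell. Most of the difference in the sum was that of Bst2, at 118 and 98.7 TPM in Pax5+/+ and 325 and 499 TPM in Pax5-/- libraries. Bst2 is also counted among the genes of the next list. Ifi27l2a was at 215 and 160 TPM in Pax5+/+ and at 139 and 136 TPM in Pax5-/- libraries. The 8 genes listed for plasmacytoid dendritic cells summed to 217 to 251 TPM in Pax5+/+ and 619 to 1072 TPM in Pax5-/- cells, and 6 of 8 were called higher, against 2.92% of all genes. Of these, Siglech, a receptor of that cell type, was at 54.4 and 158 TPM in Pax5-/- and at most 11.7 TPM in other libraries. The 13 genes found for T and NK cells summed to 142 to 170 TPM in Pax5+/+ and 414 to 422 TPM in Pax5-/- cells. Of the 9 tested, 2 were called higher in Pax5-/- cells, namely Lck, a kinase of T cell receptor signalling (log2 fold change 2.12), and Nkg7, a protein of cytotoxic granules (2.37), and Klrd1, a receptor of NK cells, was higher at an adjusted p of 0.0367 from limma (1.55). Klrb1c, another receptor of NK cells, was lower (-1.11, adjusted p = 0.00992 from limma). Most of the difference in the sum of this list was that of Lck, at 60.4 and 63.4 TPM in Pax5+/+ and 273 and 271 TPM in Pax5-/- libraries. The genes of the CD3 chains, Cd3e, Cd3d and Cd3g, were at or below 0.67 TPM in all 8 libraries. The list of early haematopoietic progenitors summed to 143 to 146 TPM in Pax5+/+ and 509 to 557 TPM in Pax5-/- cells, with 2 of 7 called higher, Flt3 (mean 371 TPM against 9.66 TPM in Pax5+/+) and Cd34 (5.25 against 0.551 TPM), while Meis1 (-1.05) and Gata2 (-0.54), transcription factors of stem and progenitor cells, were lower at adjusted p of 0.0038 and 0.0449 from limma. Most of the difference in the sum was thus that of Flt3.

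The 12 genes for granulocytes and monocytes summed to 641 to 872 TPM in Pax5+/+, 1069 to 2134 TPM in Pax5+/-, 1265 to 1366 TPM in Pax5 R31Q/-, and to 3194 TPM in library 1 and 532 TPM in library 2 of Pax5-/-. Of these 12, 2 were higher in Pax5-/- cells at an adjusted p under 0.05 from limma and 0 lower, against 16.2% and 19.4% of all genes tested. They were Ly6c2 (82.8 and 99.2 TPM against 20.8 and 16.4 TPM in Pax5+/+) and Csf1r (10.4 and 5.04 TPM against 2.43 and 2.29 TPM). Of the 12 genes of the G2/M phase, which dividing cells express, 10 were called lower in Pax5-/- cells, against 3.51% of all genes, and all 12 were lower at an adjusted p under 0.05 from limma, with sums of 446 to 475 TPM against 1372 to 2237 TPM in Pax5+/+ pro-B cells. Erythroid genes (3 of 6 called lower) and genes of small pre-B cells, which include Cd2 (4 of 7 called lower and 1 higher), also differed there, and of the genes of mature B cells 3 of 8 were called lower and 1 higher. The Pax5-/- libraries thus differed from the Pax5+/+ libraries in markers of several cell types and of the cell cycle, and the part of these in the levels of Ly6a, Ly6d and the other markers was not tested.

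Neither gene had a Pax5 peak at its own TSS. The wild-type peak nearest to Ly6d was 195 bp wide, from 74752967 to 74753161, 10.5 kb downstream by its midpoint, where it covers a TSS of Lynx1. Ly6a had wild-type peaks of 365 and 521 bp, 9.28 and 8.74 kb downstream, both met by 1 R31Q peak of 1305 bp. For Ly6a, 27.2% of the exonic stretches of 50 bases, the read length, occur again in the genome. Only uniquely mapping reads were counted, so its level is uncertain.

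Cd24a codes for CD24, the heat-stable antigen, a small sialoglycoprotein with a lipid anchor. The gene covers 43579169 to 43584265 of chromosome 10 (plus strand). It was the most abundant of the 10 in Pax5+/+ pro-B cells, with 1999 and 2114 TPM, and was at 2051 and 1965 TPM in Pax5+/-, 1922 and 1925 TPM in Pax5 R31Q/- and 679 and 988 TPM in Pax5-/- cells. The Pax5-/- libraries lay apart from all others. Cd24a fell in them by a log2 fold change of -1.33 (SE 0.18, adjusted p = 0.00106 from limma), which is below the 3-fold threshold. Without Pax5-/- library 2 it was -1.60 and past that threshold (adjusted p = 0.000474 from limma). In Pax5 R31Q/- pro-B cells the difference was -0.10, with a 95% interval from -0.51 to 0.31. In Cd24a, 19.8% of exonic 50-base stretches occur elsewhere in the genome, so its level is uncertain. Around its TSS the wild-type list held a peak of 1157 bp, wider than 98.9% of that list, and the R31Q list 1 of 1863 bp. A R31Q peak of 393 bp, 1.99 kb upstream, was not met by a wild-type peak.

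Spn codes for CD43, a long sialomucin of pro-B cells, and Ptprc for the tyrosine phosphatase CD45, whose isoform B220 marks the lineage. Spn (chromosome 7, 127123637 to 127145552, minus strand) was at 196 and 194 TPM in Pax5+/+, 233 and 239 TPM in Pax5+/-, 264 and 270 TPM in Pax5 R31Q/- and 218 and 255 TPM in Pax5-/- cells. Ptprc (chromosome 1, 138062859 to 138175756, minus strand) was at 100.002 and 102 TPM, 107 and 115 TPM, 133 and 126 TPM, and 110 and 159 TPM in the same order. Pax5+/+ was lowest for both, and no comparison of either gene with Pax5+/+ passed the threshold of limma. The log2 fold changes in Pax5 R31Q/- pro-B cells were 0.45 for Spn (95% interval 0.20 to 0.71, adjusted p = 0.0671) and 0.36 for Ptprc (-0.04 to 0.75, adjusted p = 0.305 from limma). Without Pax5-/- library 1 or library 2, the adjusted p of this Spn difference was 0.0262 and 0.026. In Pax5-/- cells, the adjusted p was 0.085 for Spn and 0.115 for Ptprc, and 0.0211 and 0.00592 without Pax5-/- library 1. With median-ratio scaling, which moved the median of all genes in this comparison from -0.11 to -0.02, both passed (0.0172 and 0.0165). A value per gene does not separate the isoforms of CD45. Spn had 2 wild-type peaks, of 219 bp within an intron near the TSS and of 336 bp 2.58 kb downstream, both met. This TSS is that of the curated transcripts of Spn and lies inside the span given above, which also covers predicted transcripts that start further upstream. Ptprc had a common peak of 578 bp in an intron, 38.48 kb downstream of its nearest TSS, and an unmet peak of 322 bp beyond its 3′ end that was fully masked as repeat.

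Cd2 codes for an adhesion molecule that appears on small pre-B cells, and cells with it on the surface were excluded by the pro-B gate. The study reports that pre-B cells of Pax5 R31Q/- mice lack CD2 and names Cd2 a gene that Pax5 activates directly. The CD2- step thus need not exclude the same cells in each genotype, though the gate also asked for Kit. The gene covers 101275908 to 101287939 of chromosome 3 (minus strand). It was at 4.77 and 2.61 TPM in Pax5+/+, 3.15 and 2.84 TPM in Pax5+/-, 1.38 and 0.899 TPM in Pax5 R31Q/- and 0.523 and 1.05 TPM in Pax5-/- cells, the lowest member in Pax5+/+ pro-B cells. These values stand for 6 to 76 reads per library, Pax5+/- overlapped with Pax5+/+, and Pax5 R31Q/- with Pax5-/-. Cd2 fell in Pax5-/- cells (log2 fold change -1.37, SE 0.27, adjusted p = 0.00702 from limma) and was not past the threshold in Pax5 R31Q/- pro-B cells (-1.10, adjusted p = 0.0755 from limma). No mean exceeded 5 TPM, so the gene could not be called. A wild-type peak of 667 bp lay 4.9 kb upstream and was met by a R31Q peak of 351 bp.

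**Figure D3:**
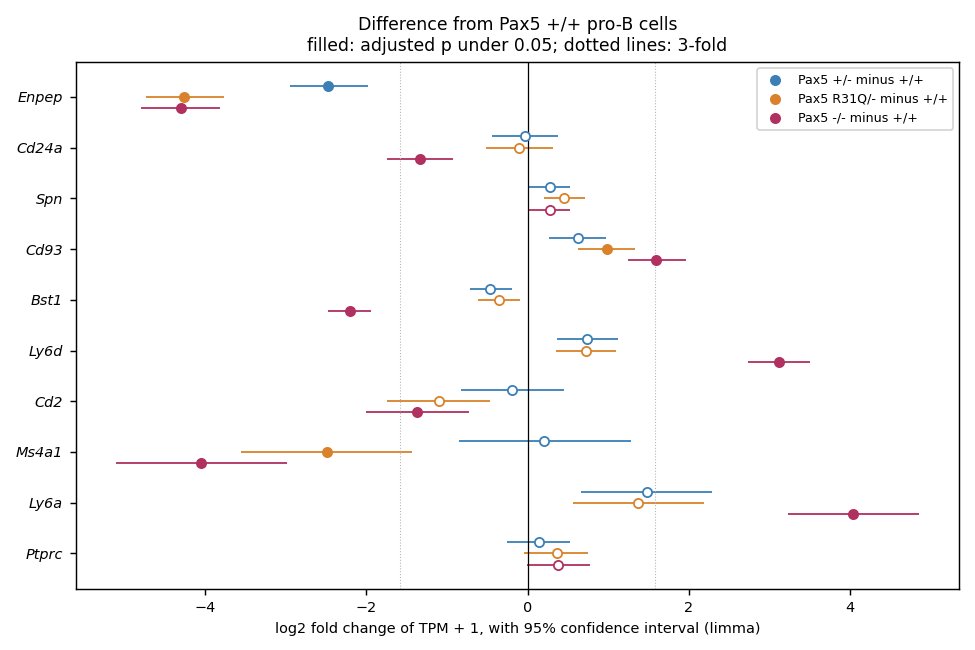
Log2 fold change of TPM + 1 (x axis) of each gene in Pax5+/-, Pax5 R31Q/- and Pax5-/- cells against Pax5+/+ pro-B cells, with 95% confidence intervals from limma. Filled points have an adjusted p under 0.05 and dotted lines mark 3-fold. Cd93, Bst1, Ly6d and Ly6a lie beyond 3-fold in Pax5-/- cells but not in the other genotypes, and Enpep in all 3 genotypes.

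Counted over the list, Pax5+/- pro-B cells differed from Pax5+/+ in 1 of 10 genes, Enpep, which was called lower against 0.0228% of genes tested. Higher were 0 of 10 by limma, also with voom on recovered reads, while 6 of the 10 had an unadjusted p under 0.05 in either direction, as did 784 of 13154 genes. In Pax5-/- cells, 3 of 10 genes were called lower (Enpep, Ms4a1 and Bst1) against 3.51% of genes tested, and 3 of 10 higher (Ly6a, Ly6d and Cd93) against 2.92%. At an adjusted p under 0.05 alone, 5 were lower against 19.4% and 3 higher against 16.2%. The median log2 fold change over the 10 genes was 0.18 in Pax5+/-, 0.13 in Pax5 R31Q/- and -0.53 in Pax5-/- cells, beside 0.02, 0.04 and -0.11 over all genes tested. These 3 comparisons share the Pax5+/+ libraries.

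The Pax5 R31Q/- pro-B cells carry as many alleles for a Pax5 protein as the Pax5+/- pro-B cells, and the comparison of both sets the R31Q protein against the wild-type protein. Enpep was lower in Pax5 R31Q/- pro-B cells (log2 fold change -1.79, SE 0.21, adjusted p = 0.0200 from limma) as 1 of 10 genes, against 0.357% of genes tested that were lower. Its mean was below 5 TPM in both genotypes, so 0 of 10 genes were called by limma (4 of 10 had an unadjusted p under 0.05, as did 1130 of 13154 genes, and voom called 1, Ms4a1, as 1 of 22 genes called lower). For Enpep, the adjusted p was between 0.165 and 0.222 with any 1 of these 4 libraries left out, highest without Pax5 R31Q/- library 2. In reads, Enpep was 60.7-fold lower in Pax5 R31Q/- (25.7 to 188, counting error only). With a pseudocount of 5 its log2 fold change was -0.59 (adjusted p = 0.133 from limma). Without a filter on low TPM its adjusted p was 0.0892 from limma. Ms4a1 had a log2 fold change of -2.71 (95% interval -3.77 to -1.65) and was 7.51-fold lower in reads (6.57 to 8.62), with an adjusted p of 0.0572 from limma. The Pax5 R31Q/- libraries held 49 and 196 reads, a spread that the counting interval does not cover, and the log2 fold change was -2.0 without library 1 and -3.42 without library 2. The adjusted p with all libraries of 0.0572 became 0.0318 with only both genotypes in the fit and 0.0307 with voom. The differences of Cd2 (-0.91, 95% interval -1.55 to -0.27, adjusted p = 0.3 from limma), Cd93 (0.36, 0.01 to 0.71), Bst1 (0.10, -0.16 to 0.37), Ly6d (-0.02, -0.39 to 0.36) and Cd24a (-0.06, -0.47 to 0.35) did not pass the threshold.

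Against the Pax5-/- cells, the Pax5 R31Q/- pro-B cells had a higher level of Bst1, called as 1 of 10 genes against 2.77% of genes tested, with a log2 fold change of 1.84 (SE 0.11, adjusted p = 5.4e-05 from limma). Ly6d with -2.40 (SE 0.16, adjusted p = 7.62e-05) and Ly6a with -2.67 (SE 0.35, adjusted p = 0.00132 from limma) were called lower, 2 of 10 against 2.28%. At an adjusted p under 0.05, Cd24a (1.23) and Ms4a1 (1.56) were also higher, 3 of 10 in all against 19.7%. Cd93 (-0.62) was also lower, 3 of 10 against 14.7%. Without single libraries, Ms4a1 missed this threshold without either Pax5+/- library (adjusted p = 0.0575 and 0.0571), Pax5 R31Q/- library 2 (0.167, with a log2 fold change of 0.85, against 2.27 without library 1) or either Pax5-/- library (0.119 and 0.0893), and Cd93 missed it (0.0986) without Pax5 R31Q/- library 1 and (0.0929) without library 2. Enpep did not differ past the threshold between these genotypes (0.04, 95% interval -0.44 to 0.53), with 5 reads in the R31Q and 1 in the Pax5-/- libraries.

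Other surface markers of B cell stages, 25 genes of which 24 were tested, had a median log2 fold change of -0.19 in Pax5 R31Q/- and -0.52 in Pax5-/- cells, beside 0.04 and -0.11 over all genes tested. In Pax5-/- cells, 7 of 24 were called lower and 4 higher by limma, against 3.51% and 2.92% of all genes tested. Among those lower were Cd72, an inhibitory receptor (log2 fold change -2.93), and Cd79a, a signalling chain of the B cell receptor (-2.76). The furthest higher was Flt3 (5.12), a cytokine receptor of progenitors, at 385 and 356 TPM against 9.79 and 9.54 TPM in Pax5+/+ pro-B cells.

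Among 26 partners and relatives of the 10 genes, of which 23 were tested, 1 was called lower and 1 higher in Pax5 R31Q/- pro-B cells, against 0.57% and 0.281% of all genes tested. Siglecg, an inhibitory receptor that binds CD24, fell from 215 and 275 TPM in Pax5+/+ to 44.2 and 46.3 TPM in Pax5 R31Q/- cells (log2 fold change -2.40, adjusted p = 0.00126 from limma) and to 10.6 and 15.9 TPM in Pax5-/- cells. Hnrnpll, an RNA-binding protein that regulates the splicing of Ptprc, rose from 3.21 and 1.98 TPM to 25.2 and 26.3 TPM in Pax5 R31Q/- cells (2.92, adjusted p = 0.0011 from limma) and to 15.1 and 21.8 TPM in Pax5-/- cells. The mean TPM of Cd24a and Ptprc themselves differed by 1.07-fold and 1.28-fold in that comparison, without passing the threshold. In Pax5-/- cells, 3 of 23 were called lower and 5 higher, against 3.51% and 2.92% of all genes tested. Those lower included Thbd (log2 fold change -3.28), the neighbour of Cd93 on chromosome 2, and Cd38 (-2.41), a relative of Bst1 in the same enzyme family. The 5 higher were Hnrnpll, Ly6c2 (2.24), Ms4a6b (2.22), Lck (2.12) and Ms4a4c (1.97). Of these, Ms4a6b and Ms4a4c are relatives of Ms4a1, which was lower in these cells.

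The profile of each called gene over the 8 libraries was set beside those of 13154 genes by Pearson's r of log2(TPM + 1), as a description, since the points share genotypes. Enpep was most like Slc18b1 (r = 0.990), Rasl10a (0.988) and Kcnj2 (0.985), which were all below 4 TPM on average. Ms4a1 was most like Fcmr, the receptor for IgM (0.987), with mean levels of 28.4, 24.0, 4.13 and 0.657 TPM in Pax5+/+, Pax5+/-, Pax5 R31Q/- and Pax5-/- cells, and then like Cltb (0.976) and Prx (0.975). Cd93 was most like Cd47 (0.990), the "do not eat me" signal, with 179, 231, 296 and 404 TPM, followed by Mcoln2 (0.988) and Abcc4 (0.988). For Bst1 these were Fxyd6 (0.995), Il5ra (0.993) and Tomm22 (0.992). Ly6d was most like Palm (0.997), Apobr (0.993) and Atad3a (0.993), and Ly6a most like Igtp (0.990), Tnfsf14 (0.990) and Tap1 (0.986). Igtp and Tap1 are interferon-induced genes, with means of 34.1 and 188 TPM in Pax5+/+ and 66.8 and 361 TPM in Pax5-/- cells.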

How the data were processed

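RNA-seq of sorted cells gave 8 libraries and ChIP-seq 2 peak lists. The authors deposited TPM per gene, computed from uniquely mapping 50-base single reads (STAR 2.4.2, per the submitters' processing notes) after removal of ribosomal reads and counting with featureCounts. Whether counting used strand is not given in the sources used here. Peaks had been called by the authors with MACS against input after alignment with Bowtie2 2.3.5.1, and the lists hold positions with no usable score. Genotypes came from the labels.

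Genes with at least 1 TPM in at least 1 library (13436, of which 13154 remained once immunoglobulin genes were left out) entered a limma 3.58.1 fit (R 4.3.3) of log2(TPM + 1) over all 4 genotypes with a mean-variance trend. P-values were adjusted by Benjamini-Hochberg over all tested genes. Reads were recovered from the steps of TPM, and 18206 of 18206 genes came out whole within 0.01 reads. Intervals of read ratios are exact at 95% and cover counting error only. Peaks were assigned to a gene within 10 kb of its RefSeq GRCm38.p6 body and counted as met from 1 bp of overlap. Distances refer to the nearest TSS of a curated RefSeq transcript where a gene has one. The consensus was searched on both strands in the 300 bases around each peak midpoint. It was the same for met and unmet peaks, while the study describes separate motifs for its common and unique peaks.

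The members and lists were chosen with earlier results of these data known. All 10 members were named. From other lists at most 4 called genes with the largest change were named, some of which are not reported here, and for each called member the 3 genes with the highest Pearson correlation. Beyond this limit, Siglech, Bst2, Ifi27l2a, Csf1r, the named T and NK cell genes and the relatives of the members called higher in Pax5-/- cells were named after their values were seen. Alternatives changed the pseudocount, filter, scaling, samples, thresholds, peak windows, peak widths and peak overlap. Voom on recovered reads was added after seeing the data.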

Additional observations from a re-analysis of the deposited data

How the results depend on the processing

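The counts of called markers in Pax5-/- cells, against Pax5+/+ and against Pax5 R31Q/-, stayed within 1.5 times under all alternatives run, though without Pax5-/- library 2 Cd24a took the place of Cd93 against Pax5+/+. Of 10 genes, 2 were called between Pax5 R31Q/- and Pax5+/+, but 1 without a filter and 1 with only both genotypes in the fit, and between 1 and 2 when leaving out single libraries. In Pax5+/- against Pax5+/+ pro-B cells, 1 was called, but 0 with a pseudocount of 0.1 and 0 with only both genotypes, and between 0 and 1 when leaving out single libraries. Between Pax5 R31Q/- and Pax5+/-, 0 were called, but 1 with a pseudocount of 5, a filter at 5 TPM, only both genotypes or voom, and 1 with a mean TPM minimum of 1. The cause was not tested. Of the member peaks, 14 of 19 were met, and 9 of 11 in gene bodies and 28 of 40 within 50 kb. With an overlap of at least 50% of both peaks, 10 of 19 were met. Among peaks at least as wide as the median of their list, 5 of 12 were met and 5 members had a R31Q peak. These medians were 332 bp in the wild-type and 559 bp in the R31Q list. The cut was thus wider for R31Q peaks, which by itself lowers the count met. Shares over all genes were not computed at these settings.

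Differences that did not pass the threshold changed sign when single libraries were left out. The log2 fold changes in Pax5+/- against Pax5+/+ ran from -0.07 to 0.01 for Cd24a, from -0.53 to 0.15 for Cd2 and from -0.20 to 0.63 for Ms4a1. In Pax5 R31Q/- against Pax5+/- they ran from -0.01 to 0.21 for Bst1, from -0.21 to 0.18 for Ly6d and from -0.72 to 0.52 for Ly6a, and against Pax5-/- from -0.29 to 0.24 for Ptprc. Enpep against Pax5-/- was -0.08 with quantile normalization.

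No paired analysis was possible because the labels give no replicate numbers. Depth limits Enpep, with 0 to 4 reads in the Pax5 R31Q/- and Pax5-/- libraries, and Cd2, with 6 to 76 reads. Where leaving out a library leaves 1 in a genotype, that library is assumed to vary like the other genotypes.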
